A study of Mus musculus with 6 samples.

Results

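The genes described here encode 10 transcription factors of lymphocytes, 6 of the ETS family (Ets1, Fli1, Elf1, Elf2, Elf4 and Etv6) and 4 of the Ikaros family (Ikzf1, Ikzf2, Ikzf3 and Ikzf5). They were taken by symbol from a deposited table of 24628 genes, and all 10 were present. RNA-seq had been made from 6 mouse libraries whose source is given as lymphocyte and which the series text calls ILC1s, group 1 innate lymphoid cells. The series text sets conditional knockout (cKO) cells against wild-type ones, and its title names RORα, the nuclear receptor encoded by Rora. The 3 cKO libraries are titled treatment, and their columns, named for Ncr1 and Rora, were matched to them by elimination. The other 3 are titled Rorafl/fl, with columns named for Rora alone (floxed), so the controls carry floxed alleles. Neither the labels nor the table state what drives the deletion, how the cells were sorted, or the age, strain and number of mice. Whether the 3 libraries of a group are separate mice, separate pools of mice or parts of a single pool is unknown. The p-values therefore rest on a spread between libraries that could be technical.

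ETS factors bind DNA through a winged helix-turn-helix domain that reads a GGAA core, and they often act beside RUNX factors. ETS1 is needed in mice for natural killer (NK) cell development, and ELF4 for normal NK cell numbers and perforin expression. Ikaros factors are zinc-finger proteins that pair with each other through their C-terminal fingers and bring corepressor complexes such as NuRD to lymphocyte genes.

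The values are RPKM, reads per kilobase of exon length, scaled to the library's assigned reads, and they came from 20152146 to 22440170 reads per library. Rora, the targeted gene, was at 5.69, 6.29 and 6.24 RPKM in cKO libraries and at 6.92, 7.41 and 7.91 RPKM in floxed libraries. In the tests described below, Rora did not pass limma (adjusted p = 0.242), and voom called it lower (adjusted p = 0.0242). The RPKM of a whole gene does not show whether some of its exons were deleted. Among markers shared by ILC1s and NK cells, Ncr1 was at 245.6 ± 12.49 RPKM in cKO and 372 ± 10.8 RPKM in floxed libraries (SD, n = 3 each), and Klrb1c was at 99.42 ± 4.007 RPKM in cKO and 103 ± 5.085 RPKM in floxed libraries. The libraries also differed in sex-linked RNA, with Xist at 9.09 to 9.86 RPKM in cKO and 28.3 to 34.3 RPKM in floxed libraries and Ddx3y at 20.5 to 21.3 RPKM in cKO and 10.02 to 11.0 RPKM in floxed libraries. Every library thus held Xist, an RNA of female cells, beside RNA of the Y-linked Ddx3y. Whether mice of both sexes were pooled in a library is not stated. Of 25 tested immediate-early and dissociation-response genes, 18 passed limma (adjusted p under 0.05) as higher in cKO libraries and 0 as lower. In that test 0.652% of all tested genes passed as higher and 0.668% as lower. At an unadjusted limma p under 0.05, against 5.55% of all tested genes higher and 8.6% lower, 20 of the 25 were higher and 2 lower. Those 2, named after their values were seen, were Nr4a3 and Egr3. Nr4a3 was at 5.08 ± 0.717 RPKM in cKO and 7.59 ± 0.125 RPKM in floxed libraries, and Egr3 at 2.22 ± 0.216 RPKM in cKO and 3.42 ± 0.421 RPKM in floxed libraries. Of 8 T cell markers, 6 were tested and 1, Cd3e, passed as lower, and the summed level of the list was 60.9 to 65.7 RPKM in cKO and 68.5 to 71.3 RPKM in floxed libraries. Of 8 B cell markers, 5 lay below the filter and 1 of the 3 tested ones, Cd22, passed as lower. Ighm, the most abundant B cell marker, was at 69.7, 79.4 and 79.4 RPKM in cKO and at 63.4, 67.7 and 65.7 RPKM in floxed libraries without passing, and the summed level of the B cell list overlapped, at 77.9 to 88.4 RPKM in cKO and 77.0 to 81.1 RPKM in floxed libraries. The part of these differences in the results below was not tested. In bulk RNA, fewer cells of a type and less RNA per cell cannot be told apart.

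All 10 genes passed the filter on low values, and in the test across all genes none of them passed as different between cKO and floxed libraries. Ets1, Ikzf1 and Elf1, which were among the most abundant of the 10, had means that differed by less than the SD within either group. Helios, encoded by Ikzf2, had the largest difference of the 10, with 5.71 ± 0.213 RPKM in cKO and 7.41 ± 0.246 RPKM in floxed libraries (SD, n = 3 each), or 77.1% of the floxed mean. The test was limma on log2(RPKM + 1), with Benjamini-Hochberg adjustment over 12731 genes that reached 1 RPKM in at least 3 libraries. All 10 members entered it, 0 passed at an adjusted p under 0.05 in either direction, and their adjusted p ran from 0.105 to 0.998. Of all tested genes, 1.32% passed, 0.652% as higher and 0.668% as lower. At an unadjusted p under 0.05, 1 member (Ikzf3) was higher and 2 (Etv6 and Ikzf2) were lower, against 5.55% of all tested genes higher, 8.6% lower and 14.1% in either direction.

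**Figure D1:**
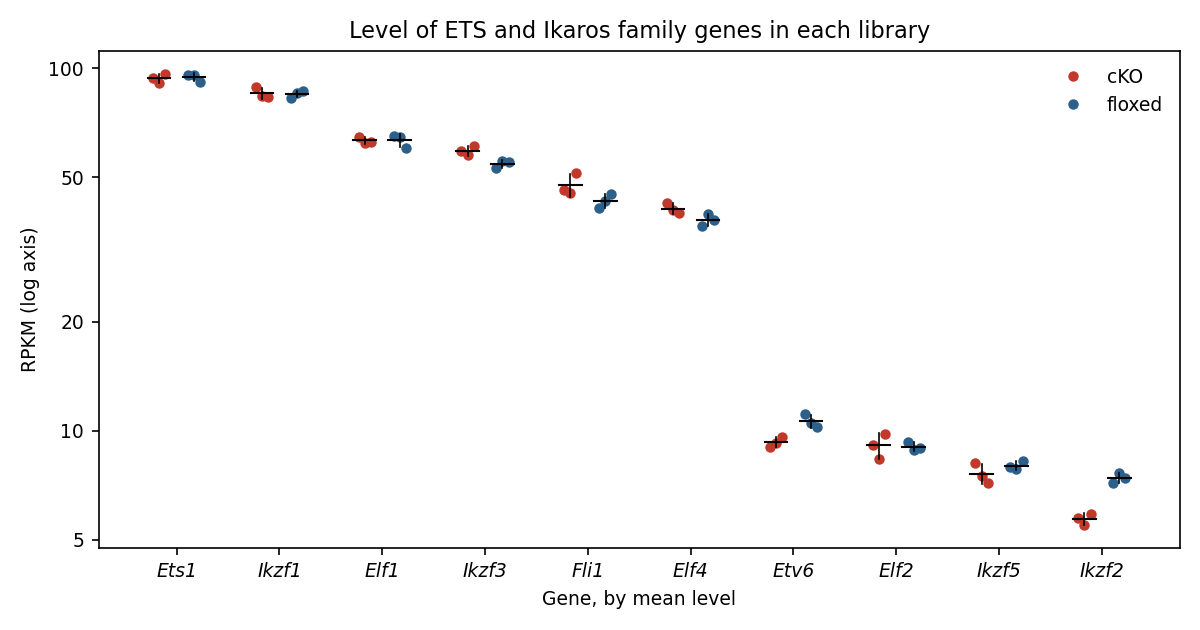
Level in RPKM (log axis) of each of the 10 genes in the 3 cKO and 3 floxed libraries; points are libraries, horizontal bars group means and vertical bars SD. The 6 most abundant genes lie at 36.7 RPKM and above and the other 4 at 11.1 RPKM and below, and the groups lie apart in Ikzf3, Fli1, Elf4, Etv6 and Ikzf2.

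Levels per exon length formed an abundant set of 6 genes and a lower set of 4. Ets1 led with a mean of 94.1 RPKM over the 6 libraries, followed by Ikzf1 at 85.1, Elf1 at 63.2, Ikzf3 at 56.9, Fli1 at 45.3 and Elf4 at 39.5 RPKM. Etv6 averaged 9.95 RPKM, Elf2 9.07, Ikzf5 7.81 and Ikzf2 6.56 RPKM. Over the 6 libraries, the ranges of neighbours in this order overlapped for Elf1 and Ikzf3, for Fli1 and Elf4, for Etv6 and Elf2 and for Ikzf5 and Ikzf2, and not for the other neighbours. Among the 12731 tested genes Ets1 lay at the 95.2 percentile of mean level and Ikzf2 at the 48.3 percentile. Reads per library ran from 903 for Ikzf5 to 18058 for Ets1. The spread over all 6 libraries, as a coefficient of variation, was 2.51% for Ets1 and for Ikzf1, and 14.5% for Ikzf2.

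Ets1 was at 93.9, 90.8 and 96.6 RPKM in cKO libraries and at 95.6, 96.0 and 91.9 RPKM in floxed libraries. The groups overlapped, and the log2 difference, cKO minus floxed, was -0.01 with a 95% confidence interval of -0.11 to 0.09. Fli1, a paralog of Ets1 within the ETS family with roles in haematopoiesis and megakaryocytes, was at 46.0, 45.4 and 51.5 RPKM in cKO libraries and at 41.1, 42.9 and 45.0 RPKM in floxed libraries. All cKO values of Fli1 lay above all floxed values, by a margin set by floxed replicate 3 and cKO replicate 2, and the difference of 0.14 (interval -0.01 to 0.30) did not pass, with limma's adjusted p = 0.390. Without cKO replicate 3, which held the highest value, the difference was 0.09, and over the 6 libraries left out in turn it ran from 0.09 to 0.18. The pair lies on chromosome 9 in mm10, Ets1 at 32636221 to 32757820 on the plus strand and Fli1 at 32422204 to 32542861 on the minus strand, with 93359 bases and 1 other gene between them. The ratio of Ets1 to Fli1 RPKM was 1.97 ± 0.0868 in cKO and 2.20 ± 0.146 in floxed libraries (SD, n = 3 each). All 3 cKO ratios lay below the floxed ones, but only just, with cKO replicate 1 at 2.041 and floxed replicate 3 at 2.043. The exact two-sided permutation p was 0.1, the smallest that 20 assignments of 3 libraries against 3 allow.

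The ELF genes encode ETS factors that activate lymphoid promoters. Elf1 was at 64.7, 62.2 and 62.7 RPKM in cKO libraries and at 64.9, 64.5 and 60.2 RPKM in floxed libraries, with a log2 difference of 0.00 (95% interval -0.11 to 0.11). Its cKO values lay within the floxed range. Elf2, which gives rise to activating and repressing isoforms, was at 9.16, 8.35 and 9.82 RPKM in cKO libraries and at 9.31, 8.83 and 8.97 RPKM in floxed libraries. Here the cKO libraries held both the lowest and the highest value, and the interval of the difference ran from -0.17 to 0.19. Elf4, an X-linked gene, was at 42.6, 40.6 and 39.7 RPKM in cKO libraries and at 36.7, 39.5 and 38.1 RPKM in floxed libraries. Its groups lay apart by a narrow margin, between cKO replicate 3 and floxed replicate 2, and the difference of 0.10 (interval -0.02 to 0.22) did not pass (limma adjusted p = 0.435). The part of the sex-linked difference between the libraries in this X-linked gene was not tested.

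Etv6 encodes a repressor of the ETS family that is needed for haematopoietic stem cells in adult mouse bone marrow. It was at 9.03, 9.24 and 9.61 RPKM in cKO libraries and at 11.1, 10.5 and 10.2 RPKM in floxed libraries, so that every cKO value lay below every floxed one. The cKO mean was 87.6% of the floxed mean, and the log2 difference was -0.17 (SE 0.06, interval -0.33 to -0.02, limma adjusted p = 0.302). It was the ETS member with the smallest p. Summed over the 6 ETS members, RPKM came to 265, 257 and 270 in cKO libraries and to 259, 262 and 254 in floxed libraries, which overlapped (exact two-sided permutation p = 0.3, smallest possible 0.1).

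Ikzf1, which encodes Ikaros, was at 88.5, 83.6 and 83.5 RPKM in cKO libraries and at 82.9, 85.5 and 86.3 RPKM in floxed libraries. The groups overlapped and the log2 difference was 0.01 (95% interval -0.10 to 0.11). Ikzf3 encodes Aiolos, which takes part in NK cell maturation in mice. It was at 59.2, 57.4 and 61.0 RPKM in cKO libraries and at 52.9, 55.6 and 55.0 RPKM in floxed libraries. All cKO values were the higher ones, yet the difference of 0.12 (SE 0.04, interval 0.01 to 0.22) did not pass, with limma's adjusted p = 0.315. Set against Ikzf1 in the same library, Ikzf3 stood at a ratio of 0.695 ± 0.0317 in cKO and 0.642 ± 0.00729 in floxed libraries (SD, n = 3 each; exact two-sided permutation p = 0.1, the smallest possible).

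Ikzf2 encodes Helios, a factor known from regulatory T cells. In NK cells of mice with a mutated Ncr1 gene, Helios has been reported to be raised. The libraries here are called ILC1s, and no label states a mutated Ncr1 gene, so they are not known to match that setting. Ikzf2 lay in the other direction in them, and a link of Ncr1 to Ikzf2 was not tested. Here Ikzf2 was at 5.73, 5.49 and 5.91 RPKM in cKO libraries and at 7.17, 7.66 and 7.38 RPKM in floxed libraries, on 1345 to 1855 reads per library. The highest cKO value lay well below the lowest floxed value. The log2 difference was -0.33 (SE 0.07, 95% interval -0.49 to -0.16), and limma's adjusted p = 0.105 did not pass. Of the 12731 tested genes, 1541 had a difference larger in size. With limma voom, a weighted fit on reads recovered from the RPKM values, the difference was -0.37 (interval -0.53 to -0.22) and adjusted p = 0.00247, so that Ikzf2 was the 1 member called in that fit, where 2.41% of all tested genes were called lower and 1.78% higher. Over the 15 alternatives run on Ikzf2 the adjusted p was 0.00247 to 0.269 and the difference -0.37 to -0.28. When any 1 library was left out the call stayed absent, with limma's adjusted p = 0.196 to 0.269 and a difference of -0.35 to -0.30. Fewer of all tested genes passed in those smaller fits, so the absent call does not measure how stable the difference was.

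The ratio of Ikzf2 to Ikzf1 RPKM was 0.0648, 0.0656 and 0.0708 in cKO libraries and 0.0865, 0.0896 and 0.0856 in floxed libraries. The groups were apart, with a log2 difference of -0.38 and an exact two-sided permutation p = 0.1, the smallest possible. Among the summed RPKM of the 4 Ikaros members, Ikzf2 took 3.62 ± 0.112% in cKO and 4.78 ± 0.0985% in floxed libraries. Ikzf3 took 37.5 ± 1.06% in cKO and 35.2 ± 0.264% in floxed libraries. The sum itself was 161.5, 154 and 157.6 RPKM in cKO and 151, 156.6 and 157 RPKM in floxed libraries, and it overlapped between groups (exact permutation p = 0.4). Foxp3, the defining factor of regulatory T cells, which was chosen after its values were seen, was at 1.39 to 1.58 RPKM in cKO and 1.06 to 1.72 RPKM in floxed libraries. The T cell gene Cd3e was at 2.78 to 3.05 RPKM in cKO and 4.86 to 5.67 RPKM in floxed libraries, and Cd4 at 27.64 ± 2.499 RPKM in cKO and 27.69 ± 1.758 RPKM in floxed libraries. The other CD3 chains overlapped between groups, Cd3d at 13.01 ± 0.5447 RPKM in cKO and 12.66 ± 2.026 RPKM in floxed libraries. Cd3g was at 12.9 ± 0.3666 RPKM in cKO and 13.02 ± 0.8643 RPKM in floxed libraries. Of the 6 tested T cell markers, 1 difference lay above 0 and 5 below. Of 7 ILC1 markers 0 passed as higher and 2, Cxcr6 and Il7r, as lower, while of 8 NK markers 3 passed as higher, namely Eomes, Klra8 and Klra4, and 0 as lower. Of all tested genes, 0.652% passed as higher and 0.668% as lower. The NK markers were not uniform, with 6 differences above 0 and 2 below. Prf1 and Itga2 overlapped between groups. Ly6c2, named after its values were seen, was at 6.04 ± 0.545 RPKM in cKO and 9.03 ± 0.555 RPKM in floxed libraries (limma adjusted p = 0.0533). Voom called Ly6c2 lower (adjusted p = 0.0106). The part of ILC1, NK and T cell content in the level of Ikzf2 was not tested.

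**Figure D2:**
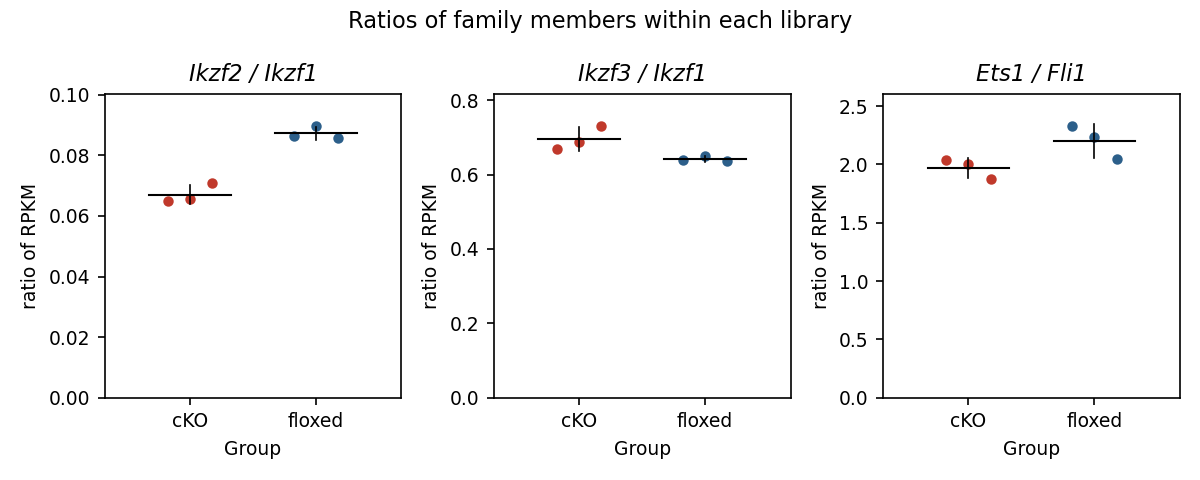
Ratio of RPKM between 2 family members within each library, for Ikzf2 to Ikzf1, Ikzf3 to Ikzf1 and Ets1 to Fli1, with cKO on the left and floxed on the right of each panel; points are libraries, horizontal bars means and vertical bars SD (n = 3). The cKO points lie below the floxed ones for Ikzf2 to Ikzf1 and for Ets1 to Fli1 and above them for Ikzf3 to Ikzf1. For Ets1 to Fli1 the highest cKO point (2.041) nearly meets the lowest floxed point (2.043).

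Ikzf5 encodes Pegasus, a divergent member of the family. It was at 8.12, 7.48 and 7.19 RPKM in cKO libraries and at 7.95, 7.83 and 8.26 RPKM in floxed libraries, which overlapped, and the log2 difference was -0.07 (95% interval -0.24 to 0.10). It was -0.11 without cKO replicate 1 and -0.03 without cKO replicate 3. Of its exon bases, 84.5% lie opposite exons of Pstk and Gm44624 on the other strand. The kit is named as stranded, but no source used here says whether the counting used strand, so reads of Ikzf5 and of these genes may not have been told apart and its level is uncertain. Exons of the other members overlapped opposite-strand genes over at most 3.9% of their bases, and those of all 10 members shared no base with a gene on the same strand. The remaining member of the family, Ikzf4, which encodes Eos, reached at most 0.164 RPKM in any library and lay below the filter.

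Counted over the 10 genes, cKO and floxed values did not overlap in 5, of which Ikzf3, Fli1 and Elf4 were higher and Etv6 and Ikzf2 lower in cKO libraries. Among all tested genes 20.3% had groups that did not overlap, 7.61% higher and 12.7% lower. The median log2 difference was 0.00 for the 10 members and -0.03 for all tested genes. Confidence intervals of the 10 differences together spanned -0.49 to 0.30. The 95% intervals of voom, fitted on reads and not on log2(RPKM + 1), placed the cKO level of Ets1 between 94.2% and 104.5% of the floxed level, that of Ikzf1 between 94.6% and 106.5% and that of Elf1 between 93.3% and 107.4%.

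**Figure D3:**
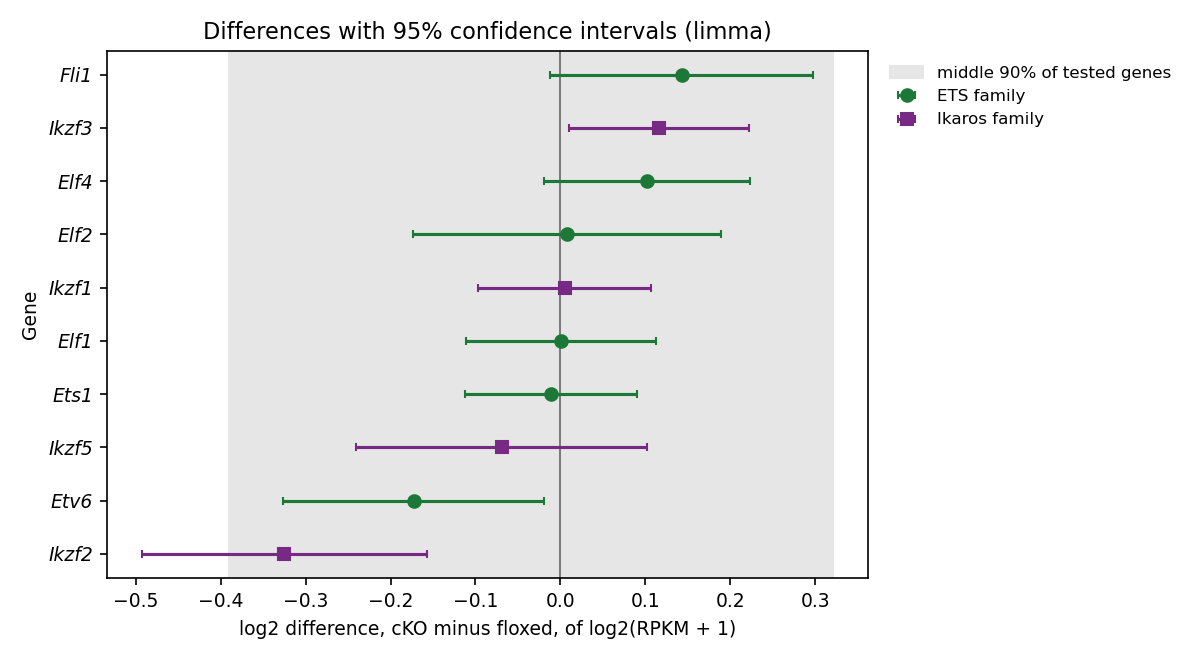
Log2 difference (cKO minus floxed, of log2(RPKM + 1)) of each gene with its 95% confidence interval from limma; circles are ETS and squares Ikaros genes, and the grey band holds the middle 90% of all tested genes, from -0.39 to 0.32. All 10 points lie inside the band, Ikzf2 at -0.33 being the lowest.

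The promoters of the members were read for the sequences that these factors bind. Promoter windows of 300 bases, 250 before to 50 after a start site, were found in RefSeq (GRCm38.p6) for 6 of the 10 genes, in 10 windows. No entry was found for Ets1, Fli1, Ikzf2 and Ikzf3. On both strands, CGGAAG, a longer form of the ETS core GGAA, was in 1 of the 10 windows and in 16.9% of all 32851 promoter windows, and the still longer CCGGAAGT, which contains it, was in 0 and in 3.89%. GGAA in other settings was not counted, so these counts do not cover all possible ETS sites. The Ikaros core TGGGAA was in 2 windows and in 25.6% of all, and the nuclear receptor core AGGTCA, of the kind RORα binds with added bases on its 5′ side, in 3 windows and in 16.3% of all. The windows with AGGTCA belonged to Elf1 (2 windows) and Elf4 (1 window). The 3 windows with CGGAAG or TGGGAA are printed because they place binding letters of these families in genes of the same families. Each of these 2 sequences is in capitals, and the windows are written 5′ to 3′ along the gene's own strand. Other GGAA letters in the windows are not marked. They are at chr6:134035450-134035749 (plus strand) for Etv6, at chrX:48463083-48463382 (minus strand) for Elf4 and at chr3:51277465-51277764 (minus strand) for Elf2. The capitals mark TGGGAA or its reverse complement TTCCCA in Etv6 and Elf4, and CGGAAG or its reverse complement CTTCCG in Elf2.
Etv6: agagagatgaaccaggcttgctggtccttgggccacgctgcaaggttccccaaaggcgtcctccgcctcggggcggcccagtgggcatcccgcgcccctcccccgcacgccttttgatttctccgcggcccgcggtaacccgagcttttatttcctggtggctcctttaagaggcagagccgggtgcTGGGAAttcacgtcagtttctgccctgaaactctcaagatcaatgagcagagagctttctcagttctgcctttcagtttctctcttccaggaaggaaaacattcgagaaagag
Elf4: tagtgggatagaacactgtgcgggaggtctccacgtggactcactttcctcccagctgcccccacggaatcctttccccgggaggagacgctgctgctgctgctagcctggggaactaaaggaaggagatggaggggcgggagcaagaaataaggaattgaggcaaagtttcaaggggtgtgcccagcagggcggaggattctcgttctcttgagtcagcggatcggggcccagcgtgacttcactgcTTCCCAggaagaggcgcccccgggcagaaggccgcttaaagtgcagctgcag
Elf2: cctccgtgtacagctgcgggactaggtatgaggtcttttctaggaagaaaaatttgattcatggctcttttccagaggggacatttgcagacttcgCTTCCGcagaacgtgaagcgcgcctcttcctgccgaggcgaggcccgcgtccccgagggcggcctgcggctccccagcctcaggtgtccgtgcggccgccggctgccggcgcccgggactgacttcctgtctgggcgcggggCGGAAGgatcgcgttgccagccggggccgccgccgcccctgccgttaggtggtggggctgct
Etv6 lay lower and Elf4 higher in cKO libraries by the values above, without passing, and Elf2 overlapped between groups. A match of letters is a description and does not show binding.

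Of 20 other ETS family genes, 17 were listed in the table and 7 entered the test, of which 0 passed. Elk4, a partner of serum response factor, was at 22.5 ± 1.13 RPKM in cKO and 22.2 ± 2.26 RPKM in floxed libraries (SD, n = 3 each). Gabpa, the DNA-binding subunit of GABP, was at 18.02 ± 1.003 RPKM in cKO and 19.55 ± 0.4046 RPKM in floxed libraries. Elk3 was at 14.69 ± 1.815 RPKM in cKO and 14.59 ± 1.308 RPKM in floxed libraries. The median log2 difference of the 7 was 0.01. Spi1, which encodes PU.1, the ETS factor of macrophages and B cells, was named after its values were seen. It lay below the filter at 0.513, 0.809 and 0.471 RPKM in cKO and 1.44, 0.958 and 1.48 RPKM in floxed libraries, and the groups did not overlap. Of the tested B cell markers, Cd22 was at 6.49 ± 0.649 RPKM in cKO and 9.93 ± 0.285 RPKM in floxed libraries (n = 3 each), Cd79b at 0.866 ± 0.546 RPKM in cKO and 1.71 ± 0.206 RPKM in floxed libraries, and Ighm at 76.2 ± 5.60 RPKM in cKO and 65.6 ± 2.18 RPKM in floxed libraries, so that the most abundant one lay in the other direction. Of 6 macrophage markers, 3 were tested and 0 passed, and the summed level of the list was 23.6 to 25.9 RPKM in cKO and 26.6 to 31.0 RPKM in floxed libraries. Most of that sum was Lyz2, whose groups overlapped, at 19.9 to 21.7 RPKM in cKO and 21.6 to 25.0 RPKM in floxed libraries. All 3 tested markers had differences below 0, with groups apart in 1. Adgre1, named after its values were seen, lay below the filter and was higher, at 0.192 to 0.234 RPKM in cKO and 0.138 to 0.171 RPKM in floxed libraries. The part of B cell and macrophage RNA in the level of Spi1 was not tested. At an unadjusted p under 0.05, limma gave 0 of these 7 genes in either direction, and voom called 0.

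Genes of proteins that work with both families were read from the same fit. At an unadjusted limma p under 0.05, that fit gave 5.55% of all tested genes as higher and 8.6% as lower. Of 12 ETS partners and regulators 0 passed in limma, with 0 higher and 2 lower at an unadjusted p under 0.05 and 0 called by voom, and their median difference was -0.05. These 2, named after their values were seen, were Gabpb1, the partner subunit of GABPα, at 3.396 ± 0.4861 RPKM in cKO and 4.306 ± 0.04785 RPKM in floxed libraries, and the acetyltransferase gene Ep300, at 13.75 ± 0.4319 RPKM in cKO and 15.56 ± 0.8945 RPKM in floxed libraries. Sp100, whose product binds ETS1, was at 66.65 ± 2.276 RPKM in cKO and 68.34 ± 3.638 RPKM in floxed libraries. Cbfb, the cofactor of RUNX factors, was at 37.92 ± 1.392 RPKM in cKO and 39.27 ± 2.012 RPKM in floxed libraries. Of 17 corepressor subunits 0 passed, with 1 higher and 0 lower at an unadjusted p under 0.05, and the median was -0.01. That gene was Chd4, the NuRD helicase, at 200, 198.5 and 203 RPKM in cKO and 180, 182 and 186 RPKM in floxed libraries. Its difference of 0.13 had a limma adjusted p = 0.164 and was called by voom (adjusted p = 0.00467). Of 5 genes of the cereblon ubiquitin ligase, through which lenalidomide causes Ikaros and Aiolos to be degraded in human cells, 0 passed in limma, 0 lay below an unadjusted p of 0.05, and voom called 0 (median -0.04). Ddb1, the adaptor of the ligase, was at 59.55 ± 2.51 RPKM in cKO and 63.5 ± 1.711 RPKM in floxed libraries.

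Genes reported as ETS targets in lymphocytes changed in both directions. Of 11 tested, 3 passed as higher and 3 as lower in cKO libraries, with a median of -0.04. Klf4 and Klf2, which encode zinc-finger factors and are reported targets of ELF4 in mouse T cells, both rose. Klf4 was at 92.5 ± 2.998 RPKM in cKO, against 44.0 ± 0.201 RPKM in floxed libraries (limma adjusted p = 0.000296), and Klf2 at 74.2 ± 5.34 RPKM in cKO, against 44.7 ± 5.48 RPKM in floxed libraries (limma adjusted p = 0.0230). Both are also on the immediate-early list. Cd247, the gene of the CD3 ζ chain and a reported ELF1 target, rose to 32.4 ± 0.365 RPKM in cKO, against 26.1 ± 0.598 RPKM in floxed libraries (limma adjusted p = 0.0344). Il2ra, the IL-2 receptor α chain, fell to 7.45 ± 0.725 RPKM in cKO, against 14.5 ± 0.638 RPKM in floxed libraries (limma adjusted p = 0.00649). Il7r, the IL-7 receptor α chain, also fell, at 190.5 ± 1.934 RPKM in cKO and 227.6 ± 5.493 RPKM in floxed libraries (limma adjusted p = 0.0279), and so did Gzmb, the granzyme B gene, at 49.61 ± 3.863 RPKM in cKO and 66.34 ± 3.24 RPKM in floxed libraries (limma adjusted p = 0.0499). The 5 that did not pass included Id2, a regulator needed by innate lymphoid cells, at 108, 101 and 109.5 RPKM in cKO and 138.6, 121.7 and 131.4 RPKM in floxed libraries. Its groups lay apart, limma's adjusted p was 0.0917, and voom called it lower (adjusted p = 0.00438), so that voom called 3 of the 11 as higher and 4 as lower. Tbx21, the gene of T-bet, was at 39.9 ± 0.420 RPKM in cKO and 46.7 ± 4.60 RPKM in floxed libraries, also with groups apart (limma adjusted p = 0.256). Il2rb, the IL-2 receptor β chain, was at 238 ± 4.21 RPKM in cKO and 245 ± 3.31 RPKM in floxed libraries. Fcer1g, the Fc receptor γ chain, and Prf1, the perforin gene, overlapped between groups, Fcer1g with 117.6 ± 11.2 RPKM in cKO and 116.8 ± 8.19 RPKM in floxed libraries and Prf1 with 48.97 ± 2.11 RPKM in cKO and 46.9 ± 0.540 RPKM in floxed libraries. Cd247, Gzmb, Tbx21 and Prf1 were named here after their values were seen. The list was chosen with earlier results of these data known, so its count is not independent evidence. The background share that passed was 1.32%. Whether the ETS factors act on these genes in these cells was not measured.

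**Figure D4:**
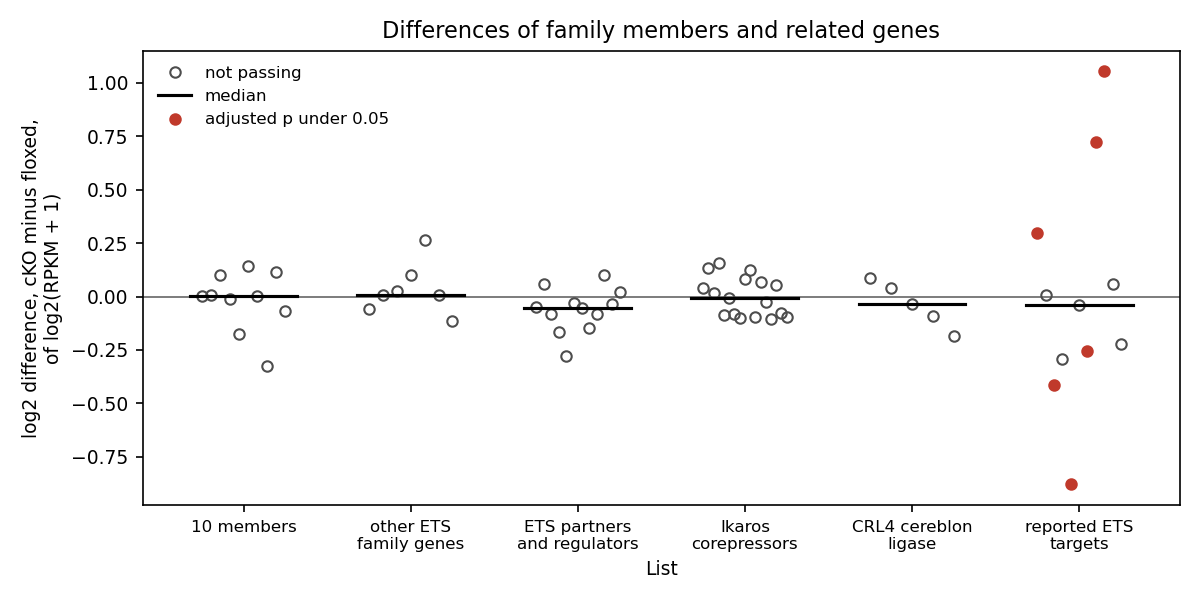
Log2 difference (cKO minus floxed, of log2(RPKM + 1)) of each tested gene in 6 lists; filled points passed limma at an adjusted p under 0.05, open points did not, and bars are medians. The only filled points are 6 of the 11 reported ETS targets, 3 above and 3 below 0.

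For the member of each family with the smallest p, the genes with the most similar profile were ranked by Pearson's r over the 6 libraries among 9106 named protein-coding genes. For Etv6 these were Terf2ip (r = 0.994), Tsr1, Ddx1, Arrdc2 and Ncbp1 (0.983), and 64 genes reached r of at least 0.95. For Ikzf2 they were Sec24c (r = 0.993), Serpinb9, Ethe1, Ncr1 (0.990) and Heatr1 (0.989), and 119 genes reached that value. Ncr1 was at 245, 233 and 258 RPKM in cKO and at 374, 381 and 360 RPKM in floxed libraries and passed as lower (limma adjusted p = 0.00447). Each r rests on 6 libraries that fall into the 2 groups, so genes that separate the groups score high with one another.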

How the data were processed

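The libraries were made from TRIzol-extracted RNA with a stranded kit, per the labels' protocols. The submitters' processing notes name build mm10 and the tools edgeR 3.12.1, Subread 1.5.1, featureCounts and STAR 2.5.3a, without saying what each did; whether counting used strand or removed duplicates is not stated. For 24628 genes in 6 libraries the authors deposited RPKM beside exon positions and a length per gene. Columns were matched to titles, those with Ncr1 by elimination. RPKM times length fell on whole multiples of 1 read within 0.01 reads for 100% of values in each library, which gave 20152146 to 22440170 reads per library. Intervals cover the spread between libraries.

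The members and lists were chosen with earlier results of these data known. Genes reaching 1 RPKM in 3 or more libraries were tested with limma 3.58.1 in R 4.3.3 (lmFit, eBayes with trend) on log2(RPKM + 1), which understates changes of low genes. Tests were two-sided, all 6 libraries entered, without covariates, and adjustment was over 12731 genes. Sums and ratios were tested by exact permutation in scipy 1.17.1. The fit was also run on simulated data with independent errors. The outcome is not given here, so the size of difference that the fit could find is not stated. Alternatives covered pseudocount, filter, scaling, variance model, voom, replicate block and single libraries left out. All members are named. In each list at most 4 passing genes by p and 3 others by level may be named, and exceptions are marked. Protein sequences were not used here.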

Additional observations from a re-analysis of the deposited data

How the results depend on the processing

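Of the 150 values recomputed for the 10 members over 15 alternatives each, 1 changed its side of the threshold, Ikzf2 with voom (-0.37), which made the count of members passing as lower 1 in place of 0. Pseudocount 0.1, filters, scalings, variance models, the replicate block and each library left out kept both member counts at 0. Direction changed in 10 values of Ets1, Elf1, Elf2 and Ikzf1, none passing, so no direction is given for these. Over all genes, 83 were higher and 85 lower, with 44 and 36 without a filter, 39 and 35 without a trend and 226 and 307 with voom. With single libraries omitted, 33 to 50 genes were higher and 27 to 39 were lower. The cause of these shifts was not tested.

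The replicate block gave 37 higher and 23 lower genes. Deviations of same-numbered libraries from their group means correlated at -0.032, 0.013 and 0.044 over genes, and not every library correlated best with its own number. Deviations from a mean of 3 libraries are tied to each other, so these values cannot show whether same-numbered libraries shared a day or batch. The labels link them by number alone. In the block Ikzf2 had adjusted p = 0.246. Leaving out 1 library gave -0.42 to -0.36 for the log2 ratio of Ikzf2 to Ikzf1, 0.08 to 0.14 for Ikzf3 to Ikzf1 and -0.21 to -0.12 for Ets1 to Fli1. For the sums and ratios, 3 libraries against 3 allow no exact permutation p under 0.1.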
